A study of Mus musculus with 4 samples.

Results

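Type I interferon-stimulated genes are the genes that cells switch on when interferon alpha or beta binds its receptor. The 46 genes described here are such genes together with IRF transcription factors and nucleic acid sensors of the same pathway. They were taken as a list of gene symbols, whose rule uses no measured value, and all 46 were among the 13834 genes of the count table of peritoneal macrophages. RNA was sequenced from 2 samples labelled Dnmt1fl/fl and 2 labelled Dnmt1KO. Both groups carry Dnmt1 alleles flanked by loxP sites, and the Dnmt1fl/fl samples are called wt in the sample labels. Dnmt1KO mice also express Cre recombinase under the LysM promoter, which is active in myeloid cells (macrophages, monocytes and neutrophils), so the deletion is not limited to macrophages. The floxed line is B6.129S4-Dnmt1tm2Jae/Mmucd. The macrophages came from 10-week-old mice whose peritoneal cavity had received thioglycolate broth 3 days earlier, a stimulus that recruits leukocytes. The sequenced cells are labelled as isolated, with no further treatment named. The methods describe culture in medium with serum after isolation, and whether the sequenced cells were cultured is not stated. Whether a sample is 1 mouse or a pool of mice, and the sex of the mice, are not given in the sources used here, so the p-values below measure only the spread between these samples. The comparison asks how deletion of Dnmt1, the enzyme that copies DNA methylation after replication, altered gene expression.

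Interferon made by an infected or stimulated cell binds the receptor IFNAR1/IFNAR2 and activates transcription factors that join IRF9 and bind the interferon-stimulated response element (ISRE) in target promoters. Interferon gamma acts mainly through another element, the gamma-activated site (GAS), and through IRF1. Double-stranded RNA in the cytoplasm, from viruses or from transcribed repeats of the genome, is detected by MDA5 (Ifih1) and RIG-I (Ddx58), which lead to interferon production. Loss of DNA methylation is known to set off this pathway in some tumour cells treated with methyltransferase inhibitors, a response named viral mimicry.

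The promoters are shown first because type I interferon is known to act on its target genes through the response element. RefSeq promoter windows on GRCm38.p6, running from 250 bases before to 50 bases after each start, matched 38 of the 46 symbols. The ISRE core was searched as GAAA, any 2 bases and GAAA again, on both strands, and overlapping matches were counted. It occurred in 19 of these 38 genes, against 4.0% of the 9868 tested genes with a window. The GAS was searched as TTCNNNGAA, which reads the same on both strands, and it occurred in 11 of the 38 genes (28.9%) against 8.32%. The 2 motifs can overlap each other in a window. All promoter windows in the table, tested gene or not, held an ISRE core in 3.44% of 32851 windows and a GAS in 8.30%. By role, the ISRE core was in 5 of 6 interferon-inducible GTPase genes, 6 of 10 antiviral effector genes, 3 of 6 genes of double-stranded RNA enzymes, 3 of 3 sensors, 1 of 2 genes of the ISG15 system, 1 of 6 remaining genes, 0 of 3 IRF genes and 0 of 2 PARP and DTX3L genes with a window. Windows of the 38 genes held a median of 6 CpG, the dinucleotide that Dnmt1 methylates, against 20 in the tested genes, with a median GC content of 51.5% against 60.7%. Over all promoter windows in the table the medians were 7 CpG and 52.7%. A match is a description of the letters in the window and not a measured binding site.

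The stretches below lie before the RefSeq start, are written in the direction of transcription, and carry the motif in capitals. They are shown for genes of different roles, chosen after their values were seen, so that promoters of genes high in one sample can be set beside those of genes high in another. The printed 50 bases of Ifit3 and Ifit3b differ at 0 positions.
Isg15, chr4:156200855-156200904, minus strand: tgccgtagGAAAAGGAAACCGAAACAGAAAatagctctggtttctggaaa
Ifit1, chr19:34640784-34640833, plus strand: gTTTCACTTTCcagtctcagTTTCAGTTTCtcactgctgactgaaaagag
Ifit3, chr19:34583387-34583436, plus strand: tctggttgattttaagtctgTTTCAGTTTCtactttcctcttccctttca
Ifit3b, chr19:34607783-34607832, plus strand: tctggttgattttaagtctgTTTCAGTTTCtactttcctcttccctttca
Rsad2, chr12:26456543-26456592, minus strand: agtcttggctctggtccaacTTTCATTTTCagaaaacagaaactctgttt
Oas3, chr5:120777705-120777754, minus strand: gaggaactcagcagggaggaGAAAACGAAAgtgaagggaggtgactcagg
Ddx60, chr8:61928048-61928086, plus strand: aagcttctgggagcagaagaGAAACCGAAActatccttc
Irgm1, chr11:48871421-48871464, minus strand: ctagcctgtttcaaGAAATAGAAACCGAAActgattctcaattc
Gbp2, chr3:142620584-142620633, plus strand: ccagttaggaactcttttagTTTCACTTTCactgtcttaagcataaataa
Gbp7, chr3:142530263-142530312, plus strand: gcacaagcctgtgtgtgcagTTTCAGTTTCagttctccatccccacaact
The motif in Irf1 is a GAS, and its window held no ISRE core.
Irf1, chr11:53769904-53769952, plus strand: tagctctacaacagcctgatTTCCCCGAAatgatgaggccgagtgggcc

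Before the results, the samples themselves were examined. The libraries held 20228071 to 24198943 counts. Levels are given as CPM, each gene's count divided by the library total and brought to 1000000, with TMM factors between samples. A floor of 3 counts stood at 0.124 to 0.148 CPM. Dnmt1 was at 86.6 and 67.0 CPM in Dnmt1fl/fl and at 37.0 and 42.7 CPM in Dnmt1KO replicates 1 and 2, a log2 fold change of -0.95 (standard error 0.24). The groups did not overlap, and the Dnmt1KO mean was 51.9% of the Dnmt1fl/fl mean. The floxed allele removes part of the gene, so this count does not show how much intact transcript remained. All 10 macrophage markers listed were in the table. Their summed level was 36430 and 35580 CPM in Dnmt1fl/fl and 18987 and 22215 CPM in Dnmt1KO, and without Lyz2, the gene whose promoter drives the Cre, it was 6471 to 7636 CPM in all 4. Neutrophil markers (8 of 12 listed were in the table, without the granule genes Mpo, Elane, Camp and Ngp) summed to 69.9 and 190 CPM in Dnmt1fl/fl replicates 1 and 2 and to 739 and 67.4 CPM in Dnmt1KO replicates 1 and 2. B cell markers (10 of 10) summed to 437 and 606 CPM in Dnmt1fl/fl and to 204 and 677 CPM in Dnmt1KO. Resident large peritoneal macrophage markers (8 of 8) summed to 916 and 1295 CPM in Dnmt1fl/fl and to 747 and 901 CPM in Dnmt1KO. Most of that sum was Cd5l. For recruited monocyte markers (8 of 8) the sums were 1653 and 2344 CPM in Dnmt1fl/fl and 1949 and 1936 CPM in Dnmt1KO. For T and NK cell markers (12 of 12) they were 50.1 and 85.9 CPM in Dnmt1fl/fl and 57.7 and 69.6 CPM in Dnmt1KO. Fewer cells of a type and less RNA per cell cannot be told apart in such samples.

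None of the interferon-stimulated genes passed the test between genotypes, and most of them were lower, not higher, in Dnmt1KO. With edgeR's quasi-likelihood test, 0 of 46 had an adjusted p under 0.05 over the 12542 genes tested, where 0 of all genes did, and 0 of 46 had an unadjusted p under 0.05 (background 0.279%). DESeq2 and limma-voom likewise called 0 of the 46 after adjustment, and each gave 1 gene an unadjusted p under 0.05, Oas2 and Ddx60 respectively. The fitted log2 fold change was below 0 for 33 of the 46 and above 0 for 13, with a median of -0.17, against 49.1% below 0 and a median of 0.0046 over all genes tested. It ran from -1.05 for Oas2 to 0.55 for Ifit3b, with standard errors from 0.22 to 0.75, and the adjusted p from edgeR was 1.00 for every one of the 46 genes, as it was for Dnmt1 and the pathway genes named below. The sign of this median rested on 1 library, since without Dnmt1fl/fl replicate 2 it was 0.14 and 15 of the 46 were below 0. Without Dnmt1KO replicate 2, which leaves 1 Dnmt1KO sample, edgeR called 7 of the 46 after adjustment, all lower: Gbp7, Gbp3, Oas2, Gbp2, Herc6, Parp14 and Ddx60. That fit called 1061 of 12754 genes in all. In 37 of the 46 genes (80.4%) the difference between genotype means was smaller than the pooled SD between replicates, against 76.3% of all genes.

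**Figure D1:**
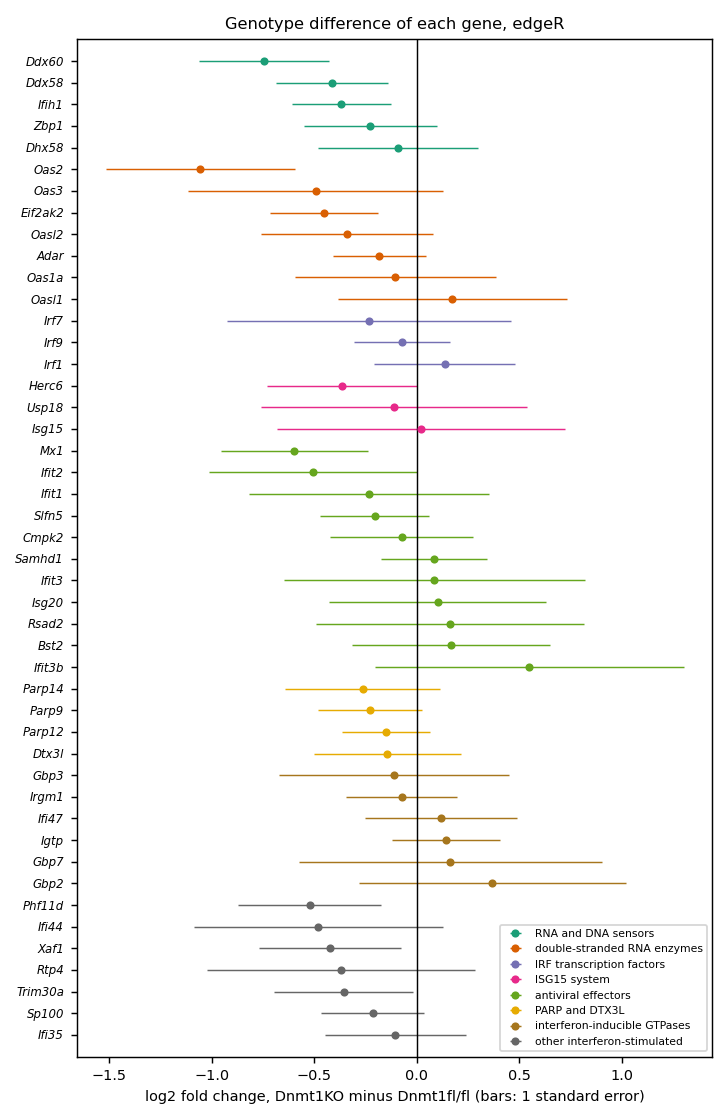
Log2 fold change of each of the 46 genes, Dnmt1KO minus Dnmt1fl/fl (x axis), fitted by edgeR to 2 samples per genotype, with bars of 1 standard error and colours for the role of the gene. Points spread on both sides of 0, 33 of them below it, and none passed the adjusted test.

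Both Dnmt1KO samples were below both Dnmt1fl/fl samples in 5 of the 46 genes, or 10.9%, where 8.56% of all tested genes met that condition. Both Dnmt1KO samples were above in 0 of 46, where 8.14% of all genes met it. The 5 genes were Oas2, Ddx60, Eif2ak2, Ifih1 and Parp12, and their share was near the background. With each sample left out in turn, the log2 fold change ran from -1.78 to -0.58 for Oas2, from -1.10 to -0.46 for Ddx60, from -0.67 to -0.19 for Eif2ak2, from -0.60 to -0.17 for Ifih1 and from -0.26 to -0.05 for Parp12, so its size depended on single libraries in each of them. They are described with their roles.

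The sensors of foreign nucleic acid were lower in Dnmt1KO in all 5 members by their fitted values, with a median log2 fold change of -0.37, and none passed the test. With 1 sample left out, Dhx58 and Zbp1 crossed 0. Ddx60, a helicase related to the RIG-I family (chr8:61928087-62038244), was at 14.5 and 14.2 CPM in Dnmt1fl/fl and at 6.66 and 10.4 CPM in Dnmt1KO. The Dnmt1fl/fl samples were nearly equal, and Dnmt1KO replicate 1 was the lowest. The log2 fold change of Ddx60 was -0.74 (standard error 0.32). Ifih1, which encodes the RNA sensor MDA5 (chr2:62595798-62646255), was at 43.3 and 49.5 CPM in Dnmt1fl/fl and at 30.6 and 41.3 CPM in Dnmt1KO, a log2 fold change of -0.37 (standard error 0.24). Dhx58, which encodes the RIG-I-like receptor LGP2, stood closest to 0 in this role. It was at 30.3 and 59.1 CPM in Dnmt1fl/fl and at 50.7 and 33.2 CPM in Dnmt1KO, so the genotypes overlapped and the samples of each genotype stood apart. The other members, Ddx58 and Zbp1, had log2 fold changes of -0.41 and -0.23 and overlapped.

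The enzymes that bind double-stranded RNA held the largest difference of the whole list. Oas2, an oligoadenylate synthetase whose product activates RNase L (chr5:120730333-120749853), was at 55.2 and 90.8 CPM in Dnmt1fl/fl and at 21.2 and 49.0 CPM in Dnmt1KO. Its log2 fold change was -1.05 (standard error 0.46), and each pair of samples of one genotype also differed, by 0.72 and 1.21 on the log2 scale. Eif2ak2, which encodes the kinase PKR that halts translation (chr17:78852564-78882573), was at 55.5 and 77.3 CPM in Dnmt1fl/fl and at 43.3 and 53.8 CPM in Dnmt1KO, a log2 fold change of -0.45 (standard error 0.26). Oasl1, an OAS-like protein known to restrain Irf7 translation, was the only gene of this role with a fitted value above 0, at 0.17, which lay below 0 with limma-voom and in each fit with a block. Oasl1 was at 17.1 and 27.1 CPM in Dnmt1fl/fl and at 38.0 and 12.0 CPM in Dnmt1KO, so Dnmt1KO held both the highest and the lowest sample. Adar, the enzyme that edits double-stranded RNA, varied least within this role, with a log2 fold change of -0.18 (standard error 0.23). Of the remaining genes, Oas1a shares 40.9% of its 100-base stretches with Oas1g, so reads could be divided between them, and Adar has 16.8% of its exon bases on the opposite strand of Chrnb2.

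The transcription factors did not move as 1 group. Irf7, the main amplifier of type I interferon production (chr7:141262706-141266481), was at 76.3 and 248 CPM in Dnmt1fl/fl and at 205 and 71.8 CPM in Dnmt1KO. The difference between the samples of a genotype was thus 1.70 and 1.51 on the log2 scale, while the log2 fold change between genotypes was -0.23 (standard error 0.69). Irf9, the DNA-binding subunit of the complex that binds the ISRE, was at 63.6 and 83.4 CPM in Dnmt1fl/fl and at 70.2 and 69.7 CPM in Dnmt1KO. Irf1, which also acts downstream of interferon gamma, was at 88.9 and 71.4 CPM in Dnmt1fl/fl and at 62.4 and 114 CPM in Dnmt1KO. The order of the samples for Irf1 was the reverse of that for Irf7 within each genotype. The fitted log2 fold changes of Irf9 and Irf1 were -0.07 (standard error 0.23) and 0.14 (standard error 0.34).

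ISG15 is a ubiquitin-like protein that is attached to other proteins, in mouse by the ligase HERC6, and removed by USP18. Isg15 was at 4.53 and 12.2 CPM in Dnmt1fl/fl and at 13.1 and 3.98 CPM in Dnmt1KO. The genotype means were close, with a log2 fold change of 0.02 (standard error 0.70) that lay below 0 in 7 of the other fits on all 4 samples, library totals, limma-voom and the length correction among them. Herc6 was at 29.1 and 34.9 CPM in Dnmt1fl/fl and at 16.5 and 33.2 CPM in Dnmt1KO, a log2 fold change of -0.36 (standard error 0.37). Dnmt1KO replicate 1 was thus the highest sample for Isg15 and the lowest for Herc6. Usp18, whose values were chosen for mention after they were seen, followed Isg15, at 9.65 and 23.9 CPM in Dnmt1fl/fl and 23.5 and 7.67 CPM in Dnmt1KO.

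The antiviral effectors were the largest role, with 11 genes, of which 6 had a fitted value above 0 and 5 below, a median of 0.08, and overlapping genotypes in every case. Mx1, the gene of a dynamin-like GTPase, had the lowest value of the role. It was at 15.5 and 29.5 CPM in Dnmt1fl/fl and at 13.7 and 16.1 CPM in Dnmt1KO, a log2 fold change of -0.60 (standard error 0.36). Only Dnmt1fl/fl replicate 2 stood apart from the other 3 samples. Samhd1, which degrades the nucleotides that reverse transcription needs, was at 686 and 720 CPM in Dnmt1fl/fl and at 638 and 853 CPM in Dnmt1KO. Bst2, which encodes tetherin, was at 52.7 and 114 CPM in Dnmt1fl/fl and at 124 and 62.6 CPM in Dnmt1KO, a log2 fold change of 0.17 (standard error 0.48). Per kilobase of exon and averaged over the 4 samples, Bst2 had the highest level of the 46 genes at 97.8 CPM, followed by Samhd1 at 79.1 and Irf7 at 39.8, and Ifi44 had the lowest at 0.181. Since Bst2 and Irf7 each differed more than 2-fold between samples of 1 genotype, this order does not hold in each sample.

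Ifit3 and Ifit3b encode RNA-binding proteins and lie within chr19:34550694-34650009, the interval from Ifit2 to Ifit1. Ifit3 is at 34583531-34588731 and Ifit3b at 34607970-34613401. They share 31.7% and 27.4% of their 100-base stretches with each other, so their counts are uncertain. Ifit3 was at 4.97 and 18.4 CPM in Dnmt1fl/fl and at 18.3 and 6.61 CPM in Dnmt1KO, a log2 fold change of 0.09 (standard error 0.73) that lay below 0 with library totals alone. Ifit3b was at 0.341 and 0.997 CPM in Dnmt1fl/fl and at 1.36 and 0.636 CPM in Dnmt1KO, which is low but above the floor, and its log2 fold change was 0.55 (standard error 0.75). Both genes had the same 2 samples high, Dnmt1fl/fl replicate 2 and Dnmt1KO replicate 1.

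PARP9, PARP12 and PARP14 are ADP-ribosylation enzymes, and DTX3L is the ubiquitin ligase that pairs with PARP9. All 4 genes had a fitted value below 0, from -0.26 for Parp14 to -0.14 for Dtx3l. With 1 sample left out, 3 of the 4 crossed 0, and Parp12 alone did not. Parp12 (chr6:39086410-39118349) was at 77.5 and 82.4 CPM in Dnmt1fl/fl and at 66.8 and 77.2 CPM in Dnmt1KO, so its groups did not overlap, with Dnmt1fl/fl replicate 1 and Dnmt1KO replicate 2 nearly equal. Parp14 was at 150 and 161 CPM in Dnmt1fl/fl and at 84.0 and 175 CPM in Dnmt1KO. Dtx3l was at 62.1 and 72.7 CPM in Dnmt1fl/fl and at 41.2 and 80.9 CPM in Dnmt1KO. In both genes Dnmt1KO held the lowest and the highest sample. Exons of Parp9 and Dtx3l overlap on opposite strands, and whether the counting used strand is not given in the sources used here.

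The interferon-inducible GTPases, which attack the vacuoles of intracellular pathogens, had the opposite order of the Dnmt1KO samples from most antiviral effectors. Gbp2 (chr3:142620602-142638008) was at 87.6 and 65.7 CPM in Dnmt1fl/fl and at 37.1 and 161 CPM in Dnmt1KO. The Dnmt1KO samples enclosed the Dnmt1fl/fl samples, and the log2 fold change was 0.37 (standard error 0.65), or 0.03 with limma-voom. Gbp3 was at 57.1 and 56.3 CPM in Dnmt1fl/fl and at 23.1 and 81.8 CPM in Dnmt1KO, a log2 fold change of -0.11 (standard error 0.56). Gbp7, named after its values were seen, had the largest difference between samples of one genotype, with 12.7 and 74.1 CPM in Dnmt1KO, or 2.54 on the log2 scale. The Dnmt1fl/fl samples of Gbp7 were at 40.8 and 36.8 CPM.

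Of the 7 remaining genes, all had a fitted value below 0 and overlapping genotypes, from -0.52 for Phf11d to -0.10 for Ifi35. With 1 sample left out, 6 of the 7 crossed 0, and Trim30a alone did not. Phf11d was at 17.2 and 32.9 CPM in Dnmt1fl/fl and at 17.9 and 17.0 CPM in Dnmt1KO, so again 1 sample, Dnmt1fl/fl replicate 2, stood apart. Ifi35 was at 23.3 and 40.2 CPM in Dnmt1fl/fl and at 35.0 and 24.2 CPM in Dnmt1KO. Over all roles, the 23 genes without values in each sample by the naming rule had log2 fold changes from -0.50 to 0.17, with a median of -0.21 and 18 of them below 0.

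**Figure D2:**
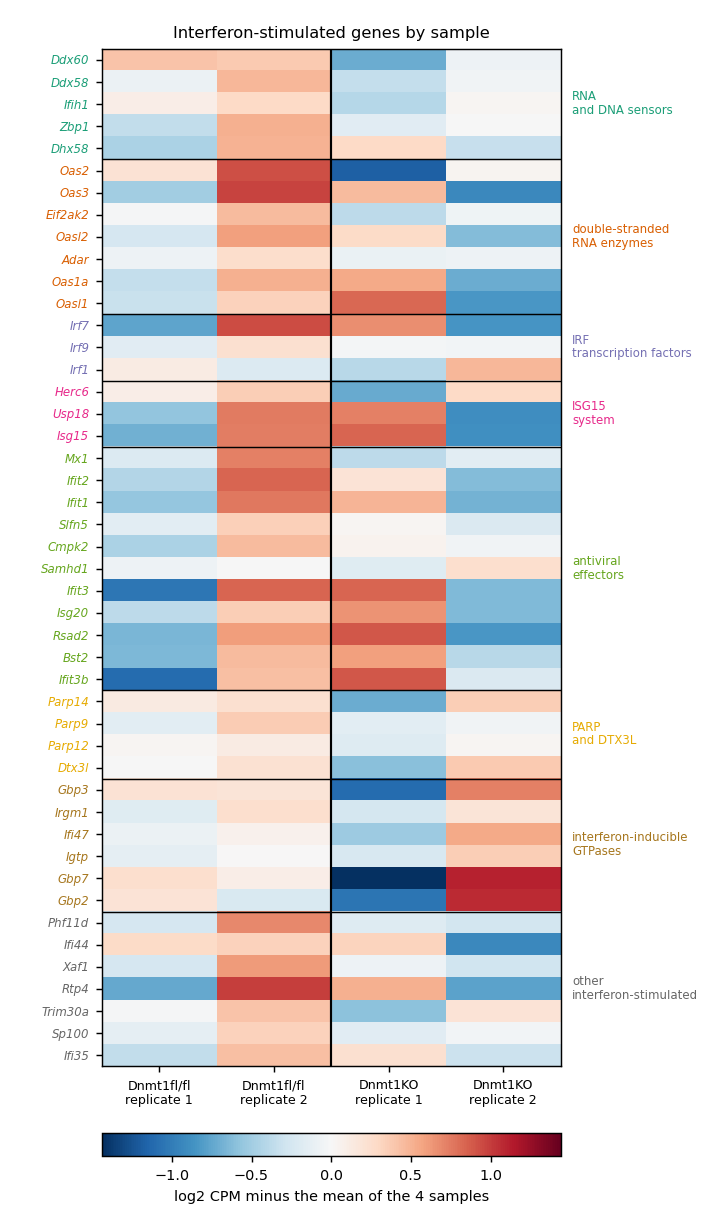
Log2 CPM of each of the 46 genes in each of the 4 samples, with the mean of the gene's 4 samples subtracted (colour scale), grouped by role. Dnmt1fl/fl replicate 2 is higher than replicate 1 for 41 of 46 genes, and the Dnmt1KO samples show antiviral effectors mostly high in replicate 1 and GTPases high in replicate 2.

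The samples of one genotype differed from each other in these genes more than the genotypes did. The median pooled SD between replicates was 0.53 on the log2 scale for the 46 genes and 0.30 for all genes tested, beside a median absolute log2 fold change of 0.21 and 0.16. In Dnmt1fl/fl, replicate 2 was above replicate 1 in 41 of the 46 genes (89.1%, against 50.1% of all genes), by a median of 0.61 on the log2 scale. It was at least 2-fold above in 11 genes, or 23.9% (background 3.44%), and at least 2-fold below in 0 (background 2.08%). All 11 antiviral effectors, all 7 double-stranded RNA enzymes and all 3 genes of the ISG15 system were higher in replicate 2, with medians of 1.11, 0.72 and 1.31. For the GTPases the median was 0.06, and 3 of 6 were higher. These counts compare 1 sample with 1 sample and have no replicate of their own.

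In Dnmt1KO the samples differed in both directions. Replicate 1 was higher in 23 of the 46 genes and replicate 2 in the other 23. Replicate 1 was at least 2-fold above replicate 2 in 13 genes, or 28.3% (background 6.48%), and replicate 2 at least 2-fold above replicate 1 in 7 genes, or 15.2% (background 12.4%). Replicate 1 was higher in 9 of 11 antiviral effectors, whose median difference, replicate 2 minus replicate 1, was -0.99. It was higher in 2 of 3 genes of the ISG15 system (median -1.62) and in 4 of 7 double-stranded RNA enzymes (median -0.90). Replicate 2 was higher in 6 of 6 GTPases (median 1.44), 4 of 4 PARP and DTX3L genes (median 0.59) and 4 of 5 sensors (median 0.30). Replicate 1 was higher in 2 of 3 IRF genes (median -0.01) and 5 of 7 remaining genes (median -0.20), and roles were mixed, as Oas2 and Oas3 show with differences of 1.21 and -1.38. No difference between roles was tested. All 23 genes that were higher in Dnmt1KO replicate 1 were also higher in Dnmt1fl/fl replicate 2 than in replicate 1. Of all tested genes that were higher in Dnmt1KO replicate 1, 66.5% were also higher in Dnmt1fl/fl replicate 2. Among the 46 genes this share was already 89.1% (41 genes) whatever their order in Dnmt1KO. The sum of the neutrophil markers was also higher in these samples of each genotype, at 190 and 739 CPM against 69.9 and 67.4. In Dnmt1fl/fl replicates 1 and 2 it rose mostly through S100a9 (5.55 and 60.5 CPM), S100a8 (6.92 and 35.7) and Mmp9 (33.4 and 66.0). Mmp8 (12.9 and 8.69 CPM), Retnlg (7.89 and 6.22) and Ltf (0.487 and 0.478) were not higher in replicate 2. The sum of mesothelial and fibroblast markers (8 of 8) had the same order as the neutrophil sum. It was 36.4 and 49.2 CPM in Dnmt1fl/fl and 95.1 and 25.3 CPM in Dnmt1KO. B cell markers were lowest in Dnmt1KO replicate 1. The part of these cells in the differences was not tested. Markers of plasmacytoid dendritic cells, the cells known for high interferon output, summed to 126 and 182 CPM in Dnmt1fl/fl and to 166 and 147 CPM in Dnmt1KO, but that list (8 of 8) includes Bst2, 1 of the 46 genes. Without Bst2 it summed to 73.5 and 68.1 CPM in Dnmt1fl/fl and to 41.3 and 84.4 CPM in Dnmt1KO. Most of that sum was Tcf4, at 51.1 and 44.1 CPM in Dnmt1fl/fl and 27.6 and 56.0 CPM in Dnmt1KO. Siglech, also on the list, was at 1.51 to 2.71 CPM.

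**Figure D3:**
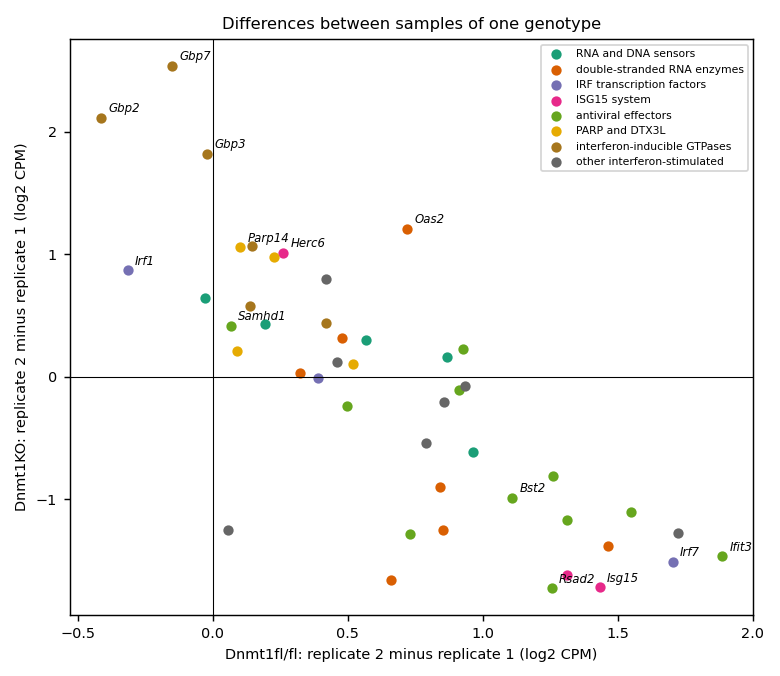
Difference between the 2 samples of each genotype, replicate 2 minus replicate 1 in log2 CPM, for the 46 genes, with Dnmt1fl/fl on the x axis, Dnmt1KO on the y axis and colours for role. Gbp7, Gbp2 and Gbp3 lie at the upper left, and Irf7, Ifit3, Isg15 and Rsad2 at the lower right.

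Transcript length moved with the difference between the Dnmt1KO samples. Across the 46 genes, Spearman's rho between the length of the longest transcript and replicate 2 minus replicate 1 was 0.42 in Dnmt1KO and -0.42 in Dnmt1fl/fl, and across 12391 genes with a length it was 0.41 and -0.33. These are descriptions across genes of the same 4 libraries, which are not independent replicates. Isg15 and Bst2 have transcripts of 756 and 792 bases and were high in Dnmt1KO replicate 1, whereas Parp14, with 7417 bases, was low in it. Gbp2 and Irf7 have transcripts of 2516 and 3240 bases and differed between the Dnmt1KO samples by 2.12 and -1.51. After a trend with length was removed from each library, 44 of the 46 genes kept the direction of their difference between the Dnmt1KO samples, and rho across them was still 0.27. The medians of that difference were then -0.83 for the antiviral effectors, -1.28 for the ISG15 system, -0.94 for the double-stranded RNA enzymes, 0.34 for the PARP and DTX3L genes and 1.57 for the GTPases. For the sensors the median went from 0.30 to 0.09.

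**Figure D4:**
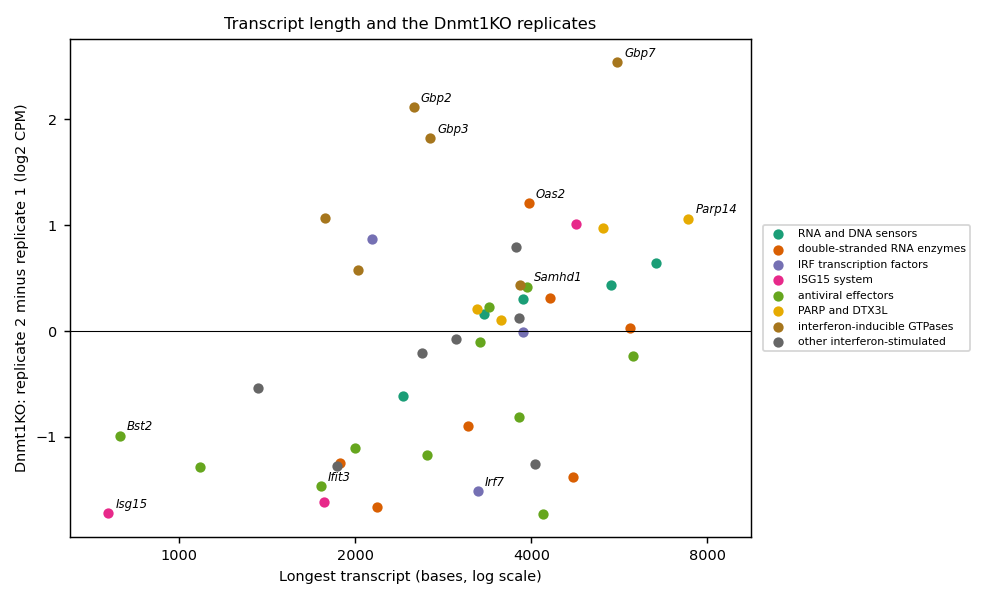
Length of the longest annotated transcript in bases (x axis, log scale) and the difference between the Dnmt1KO samples, replicate 2 minus replicate 1 in log2 CPM (y axis), for the 46 genes coloured by role. Longer transcripts tend to lie higher (Spearman's rho 0.42), and the GTPases Gbp2, Gbp3 and Gbp7 lie above genes of like length.

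The rest of the interferon pathway was counted from lists of ligands, receptors, adaptors and further interferon-stimulated genes. Of the 18 type I interferon ligand genes listed, 1 was in the table, Ifnz, at 0.0585 to 0.159 CPM, near or below the floor, and it was not tested. Genes listed at 0 in any of the 4 samples do not occur in the table, so the level of the other ligands is not known from it. Among the 10 receptor and JAK-STAT genes tested, 0 had an unadjusted p under 0.05, 1 had both Dnmt1KO samples above and 1 had both below the Dnmt1fl/fl samples (8.14% and 8.56% of all genes). Ifnar2, a chain of the receptor, was at 126 and 124 CPM in Dnmt1fl/fl and at 170 and 130 CPM in Dnmt1KO, a log2 fold change of 0.26 (standard error 0.24). Ifnar1, the other chain, was at 195 and 200 CPM in Dnmt1fl/fl and at 189 and 162 CPM in Dnmt1KO, a log2 fold change of -0.17 (standard error 0.22). Stat2, which encodes a partner of IRF9, was at 65.0 and 86.3 CPM in Dnmt1fl/fl and at 48.9 and 73.0 CPM in Dnmt1KO. The genotypes overlapped, with a log2 fold change of -0.31 (standard error 0.29). Of the 13 sensing adaptors and kinases tested, 0 had an unadjusted p under 0.05, 2 had both Dnmt1KO samples above and 3 had both below the Dnmt1fl/fl samples, or 15.4% and 23.1% against the same shares of all genes, with a median log2 fold change of -0.01. Irf3, the factor that first induces interferon beta, was at 51.6 and 54.9 CPM in Dnmt1fl/fl and at 44.9 and 51.7 CPM in Dnmt1KO.

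Of 70 other interferon-stimulated genes tested, edgeR called 0 after adjustment, and 1, Slfn4, fell under 0.05 before it. Slfn4, a Schlafen gene expressed in myeloid cells, was at 45.6 and 192 CPM in Dnmt1fl/fl and at 18.4 and 42.5 CPM in Dnmt1KO, a log2 fold change of -1.96 (standard error 0.75). The Dnmt1fl/fl samples differed from each other by 2.07 on the log2 scale, more than the genotypes did. The median log2 fold change of the 70 genes was -0.08, with 43 below 0 (61.4%, against 49.1% of all genes) and 27 above. Both Dnmt1KO samples were below in 5 of them (7.14%) and above in 2 (2.86%), against 8.56% and 8.14% of all genes. In Dnmt1KO, replicate 1 was at least 2-fold above replicate 2 in 2 of the 70 (2.86%, background 6.48%) and replicate 2 at least 2-fold above replicate 1 in 18 (25.7%, background 12.4%). The 10 other interferon-inducible GTPases among them, chosen by family after the values of the Gbp genes were seen, had the same order of the Dnmt1KO samples as those genes. All 10 were higher in Dnmt1KO replicate 2, 9 of them at least 2-fold, and 1 of 10 was higher in Dnmt1fl/fl replicate 2. Gbp5 was at 2.22 and 15.0 CPM and Gvin1 at 92.4 and 441 CPM in Dnmt1KO replicates 1 and 2.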

How the data were processed

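Per the labels and the methods, paired-end reads of 150 bases from 4 libraries were aligned by the authors to the mouse genome (mm10 in the submitters' processing notes) with HISAT2 2.0.5 and counted per gene with featureCounts 1.5.0-p3. The deposited values are estimated counts without normalization. Between 72.6% and 76.4% of values in a sample were whole. The treatment of reads that fit more than 1 gene, and of strand, is not given in the sources used here. A shorter deposited table, a selection of the same rows, was not used.

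The counts were rounded, filtered with filterByExpr and scaled with TMM (factors 0.910 to 1.04) by edgeR 4.0.16 under R 4.3.3. The two-sided quasi-likelihood test contrasted the genotypes in 12542 genes, p-values were adjusted after Benjamini-Hochberg, and standard errors came from its statistic. The common dispersion was 0.0837. The floor of 3 counts covers counting error only. With 2 samples per genotype, leaving out 1 assumes that a lone sample varies like the other genotype. Results were recomputed by limma-voom (limma 3.58.1) and DESeq2 1.42.0, and with other scalings and filters, a replicate block and a length correction (loess, span 0.5, on the longest GENCODE M21 transcript, available for 98.6% of genes). The edgeR model was tested on simulated data, and at the dispersion of these data it missed most changes of 2-fold. A lack of calls therefore leaves changes of that size possible.

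The rule for the 46 genes uses symbols alone, but the genes and lists were chosen with earlier results of these data known. Values in each sample are given for genes with an unadjusted p under 0.05 or non-overlapping genotypes, the highest and lowest log2 fold change of each role, the 3 IRF genes, Ifit3, Ifit3b and the 3 highest levels per length. Of the other pathway genes, Stat2, Ifnar1, Ifnar2, Irf3 and those with an unadjusted p under 0.05 are given, and 1 gene of that rule is not reported here. Positions are from GENCODE M21 on GRCm38, promoters from RefSeq on GRCm38.p6, both matched by symbol. Other calculations used Python 3.11.15 and SciPy 1.17.1.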

Additional observations from a re-analysis of the deposited data

How the results depend on the processing

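With other tools, scalings, filters, blocks or a length correction and all 4 samples, 0 of the 46 genes passed adjustment (lowest adjusted p 0.282, Oas2, edgeR with the crossed block), the median log2 fold change ran from -0.16 (DESeq2) to -0.24 (library totals), and 33 to 37 genes were below 0. Genes with an unadjusted p under 0.05 numbered 0 as reported, 1 with DESeq2, limma-voom, the length correction, the replicate block or that block with the length correction, and 2 with the crossed pairing, with or without the length correction. Same-numbered samples deviated in opposite directions (correlation -0.35 across genes), so the numbers were not taken as pairs; the crossed pairing, added after seeing the data, called 3 of all genes after adjustment and the replicate block 0. In these fits 8 of the 46 log2 fold changes changed sign, at most 7 in 1 fit. Of the 8, 4 are genes given in full by the naming rule. Ifit3 went to -0.037 (library totals), and Irf9 to 0.0063 and 0.0060 (crossed and replicate block, length-corrected). Oasl1 went to -0.0017 and -0.019 (crossed block without and with length), -0.0088 and -0.026 (replicate block likewise) and -0.043 (limma-voom). Isg15 went to -0.036 and -0.16 (crossed block), -0.044 and -0.17 (replicate block), -0.11 (library totals), -0.12 (limma-voom) and -0.15 (length correction). Gbp7, given in full after its values were seen, also changed sign, with a range of -0.32 to 0.17. With each sample left out, the genes passing adjustment ran from 0 to 7, those with an unadjusted p under 0.05 from 1 to 14, those with Dnmt1KO higher without overlap from 0 to 9 (20.1% to 41.0% of all genes) and lower from 6 to 30 (20% to 41.8% of all genes, and 20% beside the 30, which came without Dnmt1fl/fl replicate 1), and the median from -0.46 to 0.14. The 7 calls came without Dnmt1KO replicate 2 (adjusted p from edgeR 0.0036 for Gbp7 to 0.035 for Ddx60), and the 0.14 without Dnmt1fl/fl replicate 2. In these fits 37 of the 46 log2 fold changes crossed 0, among the genes given in full those of Bst2 (-0.41 to 0.83), Dhx58 (-0.49 to 0.48), Dtx3l (-0.71 to 0.26), Gbp2 (-1.05 to 1.07), Gbp3 (-1.29 to 0.53), Herc6 (-0.96 to 0.051), Ifi35 (-0.44 to 0.35), Ifit3 (-0.83 to 1.33), Ifit3b (-0.10 to 1.54), Irf1 (-0.36 to 0.50), Irf7 (-1.18 to 0.87), Irf9 (-0.25 to 0.14), Isg15 (-1.08 to 0.92), Oasl1 (-0.88 to 0.78), Parp14 (-0.89 to 0.17), Phf11d (-0.91 to 0.024) and Samhd1 (-0.14 to 0.28). Gbp7 (-1.61 to 0.93) and Usp18 (-1.14 to 0.70), given in full after their values were seen, also crossed 0. Of the 46 genes, 9 kept their sign, all lower. The cause was not tested. Mx1 ran from -0.99 to -0.05. On all 4 samples, Bst2 ran from 0.024 to 0.19, Gbp2 from 0.026 to 0.38 and Gbp3 from -0.38 to -0.10. With 2 samples per genotype, standard errors of 0.22 to 0.75 limit the precision. The largest count of the 46 genes with an unadjusted p under 0.05 came without Dnmt1KO replicate 2. Far more of all tested genes also met that rule there than in any other fit. Without Dnmt1KO replicate 1, fewer of the 46 genes met it, and far fewer of all genes did. Each such fit leaves 1 sample in a genotype, so no conclusion is drawn from these counts.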
